A study of Mus musculus with 6 samples.

Results

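The genes described here make coenzyme Q (ubiquinone) or assist its function, and were measured in brown adipose tissue (BAT) by RNA-seq. They were taken by symbol, as a list of 10 genes: Pdss1, Pdss2, Coq2, Coq3, Coq4, Coq5, Coq6, Coq7, Coq9 and Coq10a. All 10 were found among the 35976 rows of the count table, and all 10 passed the expression filter that left 14542 genes for testing. The libraries came from 3 WT mice and 3 sST2-KO littermates, male C57BL/6J animals of 10 weeks. In the sST2-KO mice, the Il1rl1 intron that follows exon 8 had been deleted by CRISPR/Cas9 in all tissues, with the aim of losing soluble ST2 and keeping the membrane receptor. In all 6 animals the BAT had been surgically denervated and the mice were then held at 10 °C for 8 h, so both groups share denervation and cold and differ by genotype. Innervated or warm-housed animals are not analyzed here.

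Coenzyme Q is a lipid that carries electrons within the inner mitochondrial membrane. It takes them from complex I, complex II and several other dehydrogenases and hands them to complex III, so respiration in a thermogenic tissue runs through it. The molecule has an isoprenoid tail, drawn from the mevalonate pathway, and an aromatic head that is derived from tyrosine. The tail is built first, joined to the head, and the head is then hydroxylated and methylated by enzymes that sit together in the matrix as a membrane-bound complex.

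Every member had a lower fitted level in the BAT of sST2-KO mice than in that of WT mice. The differences ranged from a log2 fold change of -0.38 in Pdss1 to -1.89 in Coq6, with a median of -1.23 against 0.034 over all genes tested. The quasi-likelihood test of edgeR found that 7 of the 10 members fell by more than 2-fold at an adjusted p under 0.05: Pdss2, Coq3, Coq5, Coq6, Coq7, Coq9 and Coq10a. Of all genes tested, 7.10% were called lower by the same rule. Without the fold minimum the count was again 7 of 10, against 9.10% of all genes lower and 10.5% higher. In 9 of the 10 members the highest sST2-KO library was lower than the lowest WT library, which held for 19.7% of all genes tested. Pdss1 was the exception.

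The makeup of the tissue samples also differed between the groups, and in bulk RNA a smaller number of cells of a type cannot be told apart from less RNA per cell. Brown adipocyte markers were clearly present in WT mice, with a sum over 11 genes of 8478 to 16202 CPM (counts scaled to the library total and normalized by TMM), and stood at 374 to 1951 CPM in sST2-KO mice, with 8 of the 11 significantly lower. Most of the WT sum was Ucp1, at 5229 to 10522 CPM in WT and 153 to 1042 CPM in sST2-KO mice. Prdm16 (log2 fold change -1.38, adjusted p = 0.137) and Ebf2 (-0.22, adjusted p = 0.724) did not pass the test. Zic1 did not pass either, and its fitted level was higher in sST2-KO mice (log2 fold change 0.68). Whether brown adipocytes were fewer in sST2-KO mice was not tested. The sum of 8 markers of adipocytes in general was 19427 to 25081 CPM in WT and 7477 to 13636 CPM in sST2-KO mice, with 1 of the 8 lower at an adjusted p under 0.05. Skeletal muscle markers summed to 6.53 to 1312 CPM in WT and 3724 to 15970 CPM in sST2-KO mice, with 2 of the 12 significantly higher and no overlap in any of them. Macrophage markers summed to 685 to 979 CPM in WT and 1308 to 5828 CPM in sST2-KO mice, with 3 of 10 significantly higher. Only 5 of the 10 were higher without overlap, and Cd163 had a lower fitted level (log2 fold change -1.26, adjusted p = 0.127). Lyz2 alone stood at 3383 CPM in sST2-KO replicate 3. T cell markers summed to 14.3 to 16.3 CPM in WT and 126 to 157 CPM in sST2-KO mice, with 7 of the 8 tested significantly higher. Endothelial markers (1319 to 1737 and 1211 to 2141 CPM) and fibroblast markers (2547 to 6454 and 1868 to 10145 CPM) overlapped. Liver markers summed to 5653 CPM in WT replicate 2, 251 and 434 CPM in the other WT libraries and 63.4 to 83.6 CPM in sST2-KO libraries. Outside WT replicate 2 most of this sum was Cyp2e1, without which the other 9 genes summed to 5317 CPM in WT replicate 2, 38.1 and 6.90 CPM in WT replicates 1 and 3 and 2.73 to 4.25 CPM in sST2-KO libraries. None of the measured markers was at 0 throughout a group. The part of tissue makeup in the levels of the coenzyme Q genes was not tested. Counts of Il1rl1 were 19, 19 and 6 in the WT mice and 55, 69 and 142 in the sST2-KO mice, and since they add up both forms of ST2 they do not check the genotype. Libraries held 8159442 to 12874809 counts, and 6.80% of them were mitochondrially encoded in sST2-KO replicate 3, against 11.8% to 16.6% in the other 5.

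Of the 3 genes that build and attach the tail, 1 fell. Values are given below in the order of replicates 1, 2 and 3. Pdss1 and Pdss2 encode the subunits of the prenyltransferase that makes the tail, and Coq2 encodes the enzyme that joins it to the head. Pdss1 (chromosome 2 of GRCm39, 22785492 to 22830278, plus strand) had 17.4, 13.005 and 19.0 CPM in WT mice and 9.13, 14.1 and 14.6 CPM in sST2-KO mice. The groups overlapped, because WT replicate 2 lay below 2 of the sST2-KO libraries. Its mean was 16.4 ± 3.09 CPM in WT and 12.6 ± 3.03 CPM in sST2-KO mice (SD, n = 3 each), and its log2 fold change of -0.38 (standard error, SE, 0.27, with an adjusted p = 0.343) did not pass the test.

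Its partner Pdss2 (chromosome 10, 43097429 to 43344225, plus strand) had 13.5, 14.6 and 17.6 CPM in WT mice and 7.18, 8.07 and 6.52 CPM in sST2-KO mice. All sST2-KO values lay within a narrow band below the lowest WT value, and the log2 fold change was -1.07 (SE 0.23, adjusted p = 0.0220). Coq2 (chromosome 5, 100802559 to 100823006, minus strand) had 63.4, 74.6 and 76.4 CPM in WT mice and 53.3, 53.6 and 40.7 CPM in sST2-KO mice. The groups did not overlap, but the log2 fold change of -0.54 (SE 0.18, adjusted p = 0.0773) missed the threshold. The sST2-KO level of Coq2 was 68.8% of the WT level by this fit, and that of Pdss2 was 47.6%.

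Coq3, Coq5, Coq6 and Coq7, whose enzymes modify the head, all fell. Coq3 and Coq5 encode methyltransferases, for the oxygen and carbon positions of the ring, respectively, and Coq6 and Coq7 encode hydroxylases. Coq3 (chromosome 4, 21879624 to 21913961, plus strand) had 41.8, 31.4 and 46.6 CPM in WT mice and 24.7, 13.5 and 14.5 CPM in sST2-KO mice. The fall was a log2 fold change of -1.18 (SE 0.28, adjusted p = 0.0303), and sST2-KO replicate 1 stood nearest to the WT range.

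Coq5 (chromosome 5, 115417725 to 115436585, plus strand) had 65.3, 87.9 and 85.1 CPM in WT mice and 34.3, 35.6 and 27.5 CPM in sST2-KO mice. Its log2 fold change of -1.29 (SE 0.20, adjusted p = 0.0136) was among the most precise of the list. Coq6 (chromosome 12, 84408394 to 84420767, plus strand) had 77.0, 139.8 and 161 CPM in WT mice and 41.3, 41.8 and 18.6 CPM in sST2-KO mice. It had the largest SE of the members: WT replicate 1 stood well below the other WT libraries, sST2-KO replicate 3 stood well below its group, and the log2 fold change was -1.89 (SE 0.39, adjusted p = 0.0204). Coq7 (chromosome 7, 118108882 to 118132579, minus strand), which encodes the hydroxylase of the penultimate step, had 60.7, 66.3 and 96.9 CPM in WT mice and 22.7, 28.5 and 16.5 CPM in sST2-KO mice. Here the groups were far apart, with a log2 fold change of -1.73 (SE 0.27, adjusted p = 0.0141).

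The remaining 3 members were Coq9, Coq4 and Coq10a. Coq9 encodes a lipid-binding protein that works with the Coq7 hydroxylase, Coq4 encodes a component of the synthesis complex, and Coq10a encodes a lipid-binding protein that is needed for coenzyme Q to function in respiration. Coq9 (chromosome 8, 95564949 to 95581525, plus strand) had the highest level of the list, with 169.5, 262 and 309 CPM in WT mice and 75.2, 87.6 and 48.9 CPM in sST2-KO mice. Its mean was 247 ± 71.2 CPM against 70.6 ± 19.8 CPM (SD, n = 3 each), with a fitted log2 fold change of -1.81 (SE 0.31, adjusted p = 0.0154). The WT libraries spread widely, but the lowest of them was still well above the highest sST2-KO library.

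Coq10a (chromosome 10, 128198308 to 128205058, minus strand) had 124, 113 and 195 CPM in WT mice and 37.2, 42.1 and 37.4 CPM in sST2-KO mice. The sST2-KO libraries were nearly level, with a mean of 38.9 ± 2.78 CPM against 144 ± 44.4 CPM in WT mice (SD, n = 3 each). Its log2 fold change of -1.89 (SE 0.25) had the lowest adjusted p of the members, 0.0122. Coq4 (chromosome 2, 29677505 to 29687947, plus strand) had 14.3, 22.6 and 22.3 CPM in WT mice and 11.1, 12.2 and 6.52 CPM in sST2-KO mice. The groups were separated only by the gap between WT replicate 1 and sST2-KO replicate 2, and the log2 fold change of -0.99 (SE 0.31, adjusted p = 0.0629) did not pass the test in edgeR, while DESeq2 gave an adjusted p of 0.0249.

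**Figure D1:**
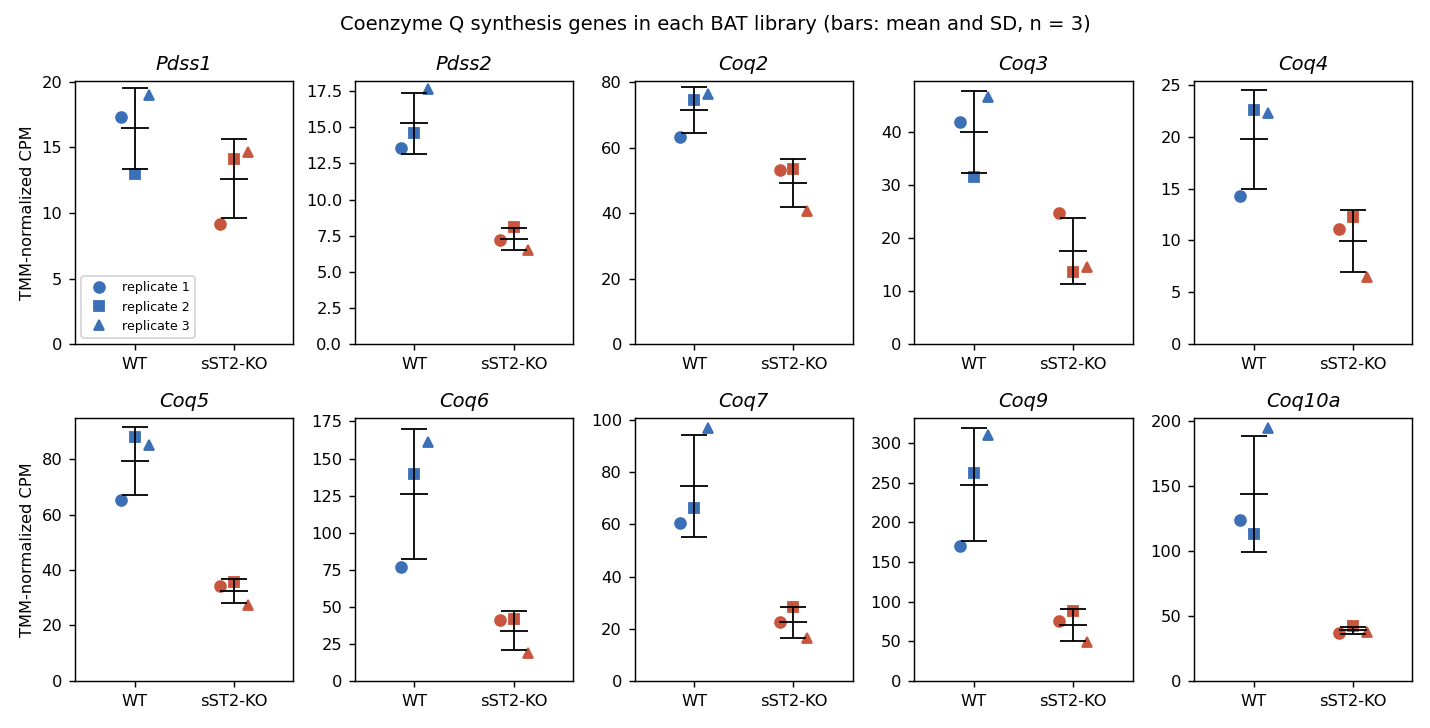
Normalized CPM of each of the 10 members (vertical axes, starting at 0) in the 3 WT and 3 sST2-KO libraries, with a marker shape for each replicate and the mean and SD as bars. In 9 panels the sST2-KO points lie below all WT points, and in Pdss1 the groups overlap.

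Overlapping neighbors may have added reads to some of these counts or removed them. The use of strand and the treatment of reads shared by 2 genes are not given in the sources used here. Of the exonic bases of the canonical transcript, 26.3% of those of Coq4 are shared with Trub2, 11.5% of Coq5 with Dynll1, 9.89% of Coq9 with Ciapin1 and 11.6% of Pdss1 with Abi1, each on the opposite strand. Trub2 (log2 fold change -0.20, adjusted p = 0.590), Dynll1 (0.29, adjusted p = 0.525) and Abi1 (0.62, adjusted p = 0.119) did not pass the test. Ciapin1 fell with Coq9, by 1.52 on the log2 scale (adjusted p = 0.0166). In Pdss1, a further 16.5% are shared with an antisense lncRNA that has no symbol in the annotation. In Pdss2, 27.2% of the exonic bases are shared with the antisense transcript 5430427G11Rik, which has no row of that name in the table. Coq10a overlaps the citrate synthase gene Cs, but shares none of the exonic bases of its canonical transcript. The exons of its other transcripts were not checked. Coq3 and Coq7 overlap no other annotated gene. Whether shared reads entered the counts or were dropped was not tested.

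The members differed in level as well as in change. Per kilobase of the canonical transcript, the WT levels ran from 138 ± 39.8 CPM per kb in Coq9 through 91.4 ± 28.2 in Coq10a, 78.6 ± 27.4 in Coq6, 58.8 ± 15.3 in Coq7, 41.0 ± 4.04 in Coq2, 32.3 ± 5.01 in Coq5 and 14.8 ± 2.88 in Coq3 to 9.77 ± 1.84 in Pdss1, 7.97 ± 1.91 in Coq4 and 6.997 ± 0.976 in Pdss2 (SD, n = 3 each). Most neighbors in this order had mean ± SD ranges that overlapped, with gaps between Coq5 and Coq3 and, narrowly, between Coq3 and Pdss1. All members were measured in the same libraries, so overlap of these ranges does not decide their order. The span from the highest to the lowest member was 19.7-fold in WT and 11.8-fold in sST2-KO mice. In the sST2-KO libraries Coq2 stood at 28.2 ± 4.24 CPM per kb of the canonical transcript. Its mean was above those of Coq6 (21.1 ± 8.28) and Coq7 (17.7 ± 4.72). By the same length, Coq6 and Coq7 had a higher mean than Coq2 in WT mice. Per kb of all annotated exons, the WT order differed. Coq9 stayed highest (72.6) and Pdss2 lowest (1.01). Coq6 then had 29.7 against 23.8 in Coq10a, Coq2 had 12.8 against 11.6 in Coq7, and Coq4 had 5.72 against 4.79 in Coq3.

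Ratios of 2 members were also taken within each library, per kb of the canonical transcript. Coq6 per kb was 1.32, 2.04 and 2.30 times Coq2 in WT mice and 0.843, 0.847 and 0.496 times Coq2 in sST2-KO mice, without overlap (exact two-sided permutation p = 0.1, the smallest that 3 mice against 3 can give). Coq9 and its partner Coq7 kept a ratio of 1.98 to 2.81 in WT and 2.10 to 2.36 in sST2-KO mice, so the groups overlapped (exact permutation p = 0.8). Pdss2 per kb was 0.602 to 0.867 times Pdss1 in WT and 0.344 to 0.607 times in sST2-KO mice (exact permutation p = 0.2). These pairs, and the paralog pairs below, were picked after the values were seen, and 5 ratios were computed in all.

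Beyond the members, 8 other genes of the pathway were examined, of which 7 were tested, and 2 of these passed the adjusted p of 0.05, both lower. Hpdl, which encodes a dioxygenase in the route from tyrosine to the head group, fell most, with means of 7.67 ± 1.64 CPM in WT and 0.995 ± 0.371 CPM in sST2-KO mice (SD, n = 3 each) and a fitted log2 fold change of -2.91 (SE 0.39, adjusted p = 0.0123). Its counts were low, at 62, 90 and 71 in WT and 19, 9 and 6 in sST2-KO mice, yet no library of one group came near the other. Stard7, which encodes a lipid transfer protein that moves coenzyme Q and phosphatidylcholine, fell by 0.70 on the log2 scale (SE 0.20, adjusted p = 0.0435).

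The other 5 did not pass. The gene of the atypical kinase Coq8a, listed as Adck3, was the most abundant of the pathway, with 649, 2022 and 1085 CPM in WT mice and 630, 762 and 264 CPM in sST2-KO mice. Its log2 fold change of -1.18 came with an SE of 0.52 (adjusted p = 0.149). For Coq8a, WT replicate 2 stood far above the other WT libraries. The same library had the highest liver marker sum, and a link between them was not tested. Coq8b, the paralog of Coq8a, listed as Adck4, was nearly level between the groups, at 33.5 ± 4.85 and 30.7 ± 3.89 CPM (SD, n = 3 each). Its log2 fold change was -0.13 (SE 0.19, adjusted p = 0.673). Pptc7, the gene of a mitochondrial phosphatase that acts on the pathway, stood at -0.78 on the log2 scale (adjusted p = 0.0588), and Fdxr, the reductase that feeds electrons to Coq6 through a ferredoxin, had -0.64 (adjusted p = 0.133). The gene of that ferredoxin, Fdx2, listed as Fdx1l, had 0 to 5 counts in every library and was not tested. Its locus is overlapped on the same strand by the annotated genes Gm49373 and Gm38431.

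Coq10a has a close paralog, Coq10b, which is of like function and is not a member here. Coq10b had 68.9, 71.1 and 65.6 CPM in WT mice and 35.2, 69.3 and 43.4 CPM in sST2-KO mice, with sST2-KO replicate 2 inside the WT range. Its log2 fold change of -0.48 (SE 0.26, adjusted p = 0.228) did not pass. Per kb, Coq10a was 1.99, 1.75 and 3.28 times Coq10b in WT mice and 1.17, 0.672 and 0.954 times Coq10b in sST2-KO mice. The ratios did not overlap between the groups (exact two-sided permutation p = 0.1, again the smallest possible). For Coq8a over Coq8b the ratios were 12.6 to 30.3 in WT and 4.21 to 15.7 in sST2-KO mice (exact permutation p = 0.2).

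**Figure D2:**
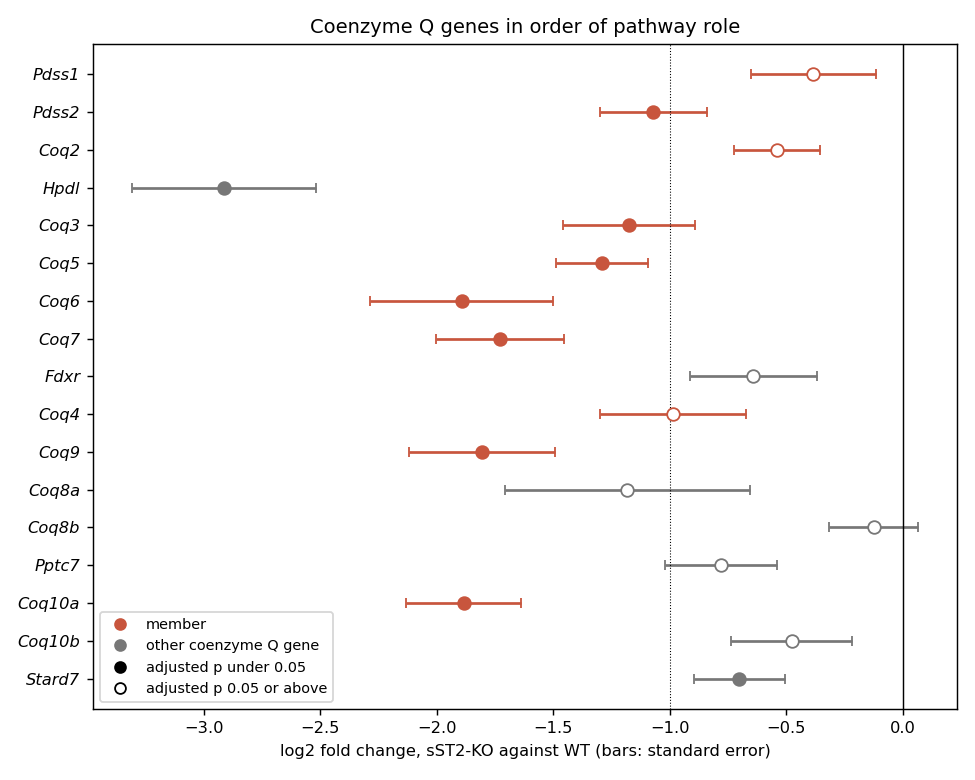
Log2 fold change of sST2-KO against WT mice (horizontal axis, bars give the standard error) for the 10 members and the 7 other coenzyme Q genes tested, ordered by role from tail synthesis at the top to function and transport at the bottom. Filled points have an adjusted p under 0.05 and the dotted line marks a 2-fold fall. Hpdl is lowest at -2.91, Coq6, Coq10a, Coq9 and Coq7 lie between -1.89 and -1.73, and Coq8b is nearest to 0 at -0.13.

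Upstream of the tail, genes of isoprenoid supply changed in both directions. Of 9 genes from Acat2 to Ggps1, 1 was significantly lower and 1 was significantly higher, and the median log2 fold change was -0.20. Pmvk, a kinase of the mevalonate pathway, fell by 1.30 on the log2 scale (adjusted p = 0.0243), and Mvd, the decarboxylase that follows it, rose by 1.81 (adjusted p = 0.0274), from 4.83 ± 1.37 to 17.0 ± 8.92 CPM (SD, n = 3 each). Hmgcs1, the synthase at the entry to the pathway, stood at -1.14 (adjusted p = 0.0865), and Ggps1, a prenyl diphosphate synthase, was the least changed at -5.8e-05 (adjusted p = 1.00).

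Downstream, the enzymes that reduce coenzyme Q or take electrons from it were lower in most cases. Of 12 genes of reductases outside complex I, 6 fell at an adjusted p under 0.05, each by more than 2-fold. These 6 were Etfdh, Gpd2 and Sdha, Sdhb, Sdhc and Sdhd, which all encode subunits of complex II. A lower fitted level was found in 11 of the 12, with a median log2 fold change of -1.31, and Nqo1 was higher (1.42, adjusted p = 0.0609). The largest falls were in Gpd2, the mitochondrial glycerol 3-phosphate dehydrogenase (-2.62, adjusted p = 0.0136), Etfdh, which passes on electrons from fatty acid oxidation (-2.57, adjusted p = 0.0135), and Sdhb, a subunit of complex II (-1.93, adjusted p = 0.0170). The least changed was Sqor, the sulfide quinone oxidoreductase, at -0.27 (adjusted p = 0.422). All 9 nuclear genes of complex III and all 7 core genes of complex I on the list fell at an adjusted p under 0.05, with medians of -1.95 and -1.74.

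Set against these lists within each library, the members differed less between the groups than complex III and complex I did. The mean log2 CPM of the members minus that of complex III was -3.30, -3.30 and -3.67 in WT mice and -2.77, -2.85 and -2.50 in sST2-KO mice. This difference was thus 0.72 higher on average in sST2-KO mice, without overlap, and that to complex I was 0.49 higher. Against the reductases the mean difference was -1.52 in WT and -1.52 in sST2-KO mice, a mean shift of 0.0027. The single sST2-KO libraries lay on both sides of the WT range, at -1.66, -1.60 and -1.30 against -1.55, -1.495 and -1.53 in WT mice. Against isoprenoid supply, by contrast, the difference went from 1.31 ± 0.21 to 0.24 ± 0.20 (SD, n = 3 each), a shift of -1.07, and against the general adipocyte markers the shift was -0.26, with overlap between the groups. The largest shift was against the brown adipocyte markers, from -1.69 ± 0.14 to -0.29 ± 0.65 (SD, n = 3 each), or 1.40 higher in sST2-KO mice without overlap. These differences between lists are descriptions and were not tested.

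**Figure D3:**
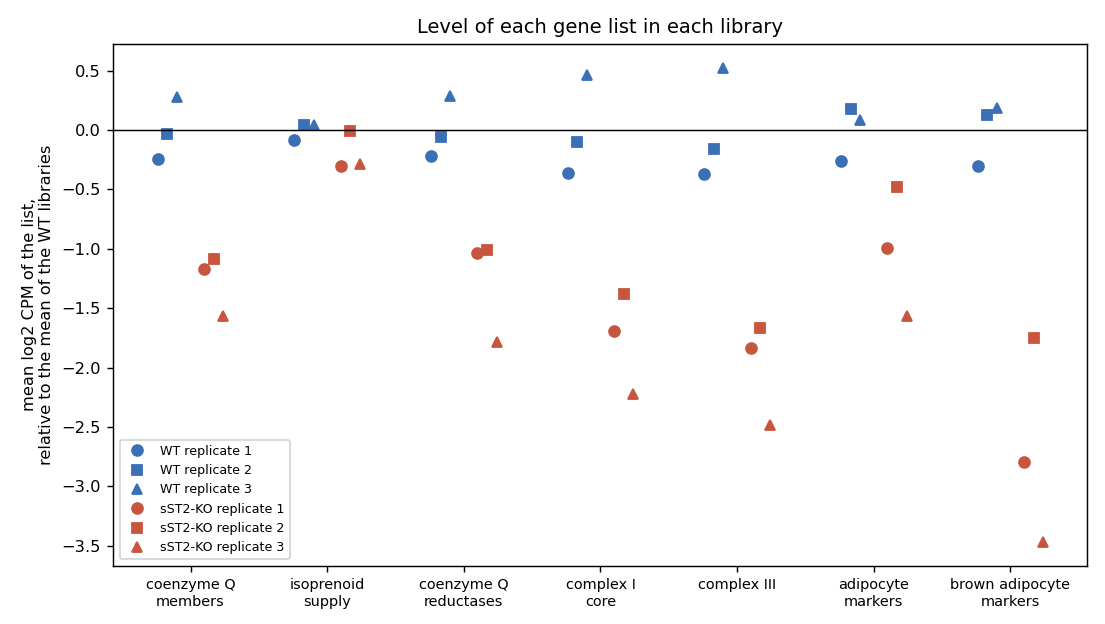
Mean log2 CPM of each gene list in each library, relative to the mean of the 3 WT libraries (vertical axis), with a color for each group and a marker shape for each replicate. The sST2-KO points of the coenzyme Q members lie about as low as those of the reductases, above those of complex III and the brown adipocyte markers, and below those of isoprenoid supply.

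Within the groups the members varied together for the most part. WT replicate 3 held the highest WT value in 8 of the 10 members and WT replicate 1 the lowest in 7. Among sST2-KO mice, replicate 2 was highest in 8 members and replicate 3 lowest in 7. The share of all genes with these orders was not computed. The first principal component of all genes tested, the axis along which the libraries differed most, held 70.5% of the variance. It ran from WT replicates 3 (-92.0), 2 (-71.0) and 1 (-30.9) to sST2-KO replicates 2 (41.8), 1 (46.9) and 3 (105). The mean log2 CPM of the members ranked the libraries in this same order, so the order was not particular to these genes. WT replicate 1 had the highest skeletal muscle sum of the WT libraries, and sST2-KO replicate 3 had the highest muscle and macrophage sums of all 6. After the group means were removed, the correlation of each member with the mean of the other 9 over the 6 libraries was 0.83 to 0.96 in Pdss2, Coq2, Coq4, Coq5, Coq6, Coq7 and Coq9 and 0.61 in Coq10a, but 0.14 in Coq3 and -0.20 in Pdss1. These coefficients share the library scaling and rest on 6 points, which are not all independent once the group means are removed. The coefficient of variation of the members was 9.85% to 34.8% in WT and 7.13% to 39.2% in sST2-KO mice.

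Among 11940 other expressed genes (mean log2 CPM 2 or higher), the 5 whose log2 CPM followed the mean of the members most closely were Ndufb10, Isca1, Ndufv3, Aste1 and Afg3l2, with Pearson r between 0.998 and 0.9995 over the 6 libraries. The libraries form separate groups, so these values largely follow the difference between WT and sST2-KO mice. Ndufb10 and Ndufv3 encode subunits of complex I, Isca1 an iron-sulfur cluster assembly protein and Afg3l2 a mitochondrial protease. Ndufb10, the closest, fell by 1.85 on the log2 scale (SE 0.30, adjusted p = 0.0147).

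Calls were lost when single libraries were left out, while the direction was kept. All 10 members kept a negative log2 fold change with each library left out in turn, and the median stayed between -1.42 and -1.13. Without WT replicate 3, however, only Coq10a of the 7 members still passed (adjusted p = 0.0482), and the others had adjusted p values of 0.0610 to 0.118. Without WT replicate 2, Coq5, Coq7, Coq9 and Coq10a passed, while Coq6 (adjusted p = 0.0616), Coq3 (0.0544) and Pdss2 (0.0603) did not. Without sST2-KO replicate 3, Coq3 (adjusted p = 0.0744) and Pdss2 (0.0573) did not pass. Coq3 was also lost without WT replicate 1 (adjusted p = 0.0658) and without sST2-KO replicate 2 (adjusted p = 0.0722), so that it passed in 1 of the 6 fits, against 3 for Pdss2 and 4 for Coq6. Over all genes, 22 were called lower without WT replicate 3 and 480 without WT replicate 2, against 1033 with all 6 libraries. Coq10a was the only member to pass in each of these 6 fits.

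**Figure D4:**
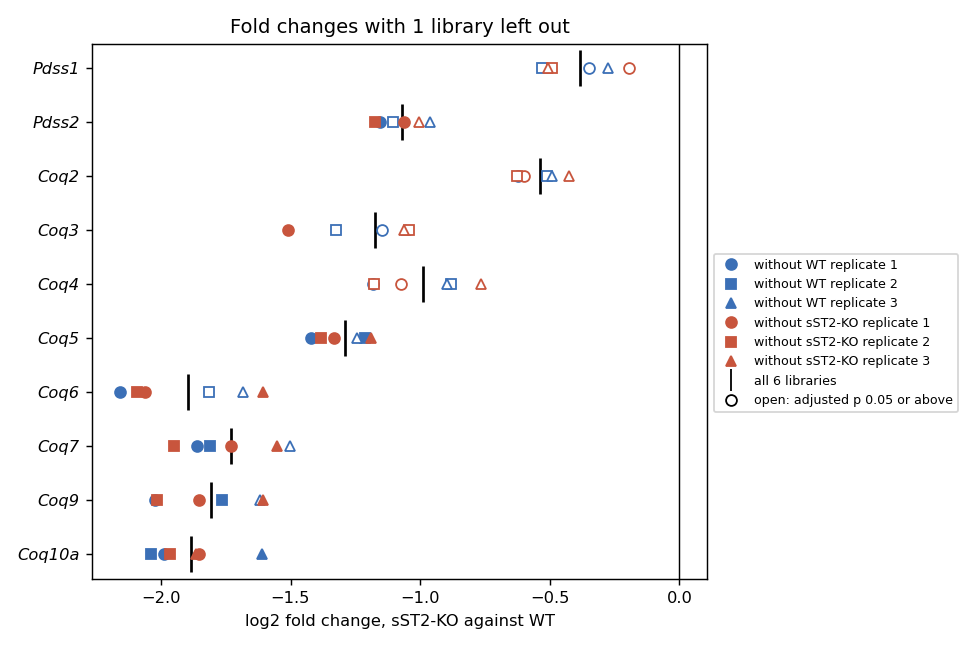
Log2 fold change of each member (horizontal axis) with all 6 libraries (black bar) and with 1 library left out (colored markers), where open markers have an adjusted p of 0.05 or above. No marker reaches 0, and all 6 markers of Coq10a are filled.

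The promoters were searched for 4 motifs of factors known to act on mitochondrial or cAMP-responsive genes: TCAAGGTCA (estrogen-related receptors), TGCGCATGC (NRF1), CCGGAAGT (Ets factors such as GABP) and TGACGTCA (CREB), on both strands. RefSeq windows of 300 bases, from 250 before to 50 after a start on GRCm38.p6, were found for 9 of the 10 members, and Coq5 was not matched. The only match was to the NRF1 letters in Coq2, from base -50 to base -42 before the start, so that 1 of 9 members held them, against 1.72% of the 27025 genes with a window. The other motifs were in 0 of 9 members, and in 0.466%, 4.31% and 2.03% of these genes for estrogen-related receptors, Ets factors and CREB. The 120 bases before the Coq2 start are shown because they hold this match, which is in capitals (GRCm38.p6, chr5:100674257-100674376, minus strand):
Coq2: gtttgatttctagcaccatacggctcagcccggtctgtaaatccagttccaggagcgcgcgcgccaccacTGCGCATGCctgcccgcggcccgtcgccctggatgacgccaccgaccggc
Coq2 is the member that, after Pdss1, changed least. A match is a description of the letters and not a binding site, and the absence of one says only that these letters are not in the window.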

How the data were processed

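BAT RNA was poly-A selected and sequenced as 150 bp paired-end reads. Per the labels, FastQC 0.12.1 and HISAT2 2.2.1 (mm39) were used, and the authors counted reads with htseq-count; its version and annotation are not given in the sources used here. The deposited counts are unnormalized, 1 column per mouse. The members and lists were chosen with earlier results of these data known.

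Genes were filtered by filterByExpr, scaled by TMM and compared by edgeR 4.0.16 (glmQLFit, glmQLFTest, no covariate, R 4.3.3), with Benjamini-Hochberg adjustment across 14542 genes. Calls needed an adjusted p under 0.05 and a fold above 2. The standard error is the log2 fold change divided by the square root of F. Mean log2 CPM used a prior count of 2. The code was tested on simulated counts. Gene positions and transcript lengths are from GENCODE M39 (GRCm39), and promoters from RefSeq (GRCm38.p6). Named genes were all members, the other pathway genes, up to 3 largest and the least changed of each further list, and the 5 most alike in pattern. Markers were given as sums. Further single genes of a list or marker set were named where they shaped its sum or count. Alternatives were DESeq2 1.42.0, other scalings, filters and thresholds, robust estimation, the replicate block and left-out libraries.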

Additional observations from a re-analysis of the deposited data

How the results depend on the processing

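All 10 members kept a lower level in sST2-KO mice under all alternatives with a fitted fold change. The 7 members called, and the 1033 genes called lower in all, stayed within 1.5 times of these counts with DESeq2 (8 and 1317), RLE factors, total counts (5 and 691), a minimum of 10 counts per sample, no filter, robust estimation, unadjusted p values and a 1.5-fold minimum. Total counts moved the median log2 fold change of all genes tested from 0.034 to 0.29 and that of the members from -1.23 to -0.963, and Coq3 then had an adjusted p of 0.0645. With 1 library left out, 1 to 7 members were called, 1 to 7 had an adjusted p under 0.05, and 22 to 998 genes were called lower in all. The lowest came without WT replicate 3, then 4 members without WT replicate 2 and 5 without sST2-KO replicate 3, where 641 genes were called. In edgeR with a replicate block, the fit called 0 members and 0 genes, while 9 members and 31.8% of all genes tested (4623) had an unadjusted p under 0.05. Deviations of same-numbered libraries correlated at -0.06, 0.21 and -0.31. These 3 values, with no reference to compare them with, cannot decide whether the numbers pair the mice. Of 2 alternatives added after the values were seen, leaving out mitochondrially encoded genes kept 7 members, and leaving out both WT replicate 2 and sST2-KO replicate 3 kept 3 members and 462 genes. The causes of these losses were not tested. Hpdl, with 6 to 90 counts per library, and Fdx2, with 0 to 5, had the fewest counts of the pathway.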
